A study of Mus musculus with 54 samples.

Results

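Among the open chromatin sites of microglia taken from mice 3 h after a first LPS injection (PL), 5048 of 70446 ATAC peaks were also open after a second LPS injection (LL) and in neither group whose last injection was PBS (PP and LP). These gained sites were chosen by their measured presence in 4 ATAC peak lists, as PL peaks that overlapped an LL peak by at least 1 bp and no PP or LP peak. They matched 5082 of 71667 LL peaks. LPS is the endotoxin of bacterial outer membranes, and ATAC-seq cuts and tags DNA where chromatin is accessible. The study asked how an earlier stimulus changes the later response of microglia. Male C57BL/6J mice were injected intraperitoneally on 2 occasions separated by 4 weeks, with either PBS (P) or 1 mg/kg LPS (L), and the letters of a group give the order. A separate model used Ercc1 Δ/ko mice on a mixed FVB and C57BL/6J background, which lack normal DNA repair and age early, near the end of their short lifespan. Their control littermates (WT) carried Ercc1 as wt/Δ, wt/ko or wt/wt, so this group mixed genotypes, and both genotypes received PBS or LPS (WT-PBS and KO-PBS, or WT-LPS and KO-LPS). Microglia were sorted from whole brain by high CD11b, intermediate CD45 and no Ly6C, 3 h after the last injection. Each ATAC list came from 1 library of 2 pooled mice and each histone mark list from 1 library of 5 pooled mice, so no peak value has a replicate check. RNA was sequenced from 3 single mice per group.

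Microglia carry Toll-like receptor 4, which senses LPS and signals through NF-kB and MAP kinases to the AP-1 factors. Such factors act at enhancers, stretches of DNA away from gene starts that are marked by H3K4me1 and, when active, by H3K27ac, whereas H3K4me3 marks gene starts. Enhancers that open only after a stimulus are known in macrophages, where AP-1, C/EBP and NF-kB bind beside the lineage factor PU.1.

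The 6 stretches of reference sequence below show the motifs that the later counts turn on, each inside a gained peak nearest to a gene that rose after LPS. They were picked only among gained peaks that had an H3K27ac peak in PL and were open in WT-LPS. They are 121 bp long, on the plus strand of GRCm38 as given by RefSeq and centred on the peak summit, and capitals mark the motif. Both AP-1 examples, with TGANTCA, lay between genes. The first stood 12850 bp from the start of Dusp2, a nuclear MAP kinase phosphatase, and the second 19518 bp from the start of Slc39a14, a zinc and iron importer of the acute-phase response. The NF-kB examples lay in introns, nearest to Ass1, which makes the precursor of arginine, and to Fosl2, a subunit of AP-1. The C/EBP example, with TTGCNNAA read on the other strand, lay in an intron near Dusp1, another MAP kinase phosphatase. The ISRE-like example held GAAANNGAA in 2 places on the other strand and lay between genes, 4801 bp from Il1a, which encodes the cytokine interleukin-1 alpha.
AP-1 near Dusp2, chr2:127323019-127323139: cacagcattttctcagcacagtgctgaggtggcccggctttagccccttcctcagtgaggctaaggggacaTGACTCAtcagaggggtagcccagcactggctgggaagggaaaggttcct
AP-1 near Slc39a14, chr14:70371006-70371126: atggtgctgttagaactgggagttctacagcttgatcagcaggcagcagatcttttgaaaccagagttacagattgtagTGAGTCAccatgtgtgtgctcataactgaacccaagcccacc
NF-kB near Ass1, chr2:31446198-31446318: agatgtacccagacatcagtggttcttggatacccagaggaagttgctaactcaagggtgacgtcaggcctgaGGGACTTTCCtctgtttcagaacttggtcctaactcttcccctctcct
NF-kB near Fosl2, chr5:32139850-32139970: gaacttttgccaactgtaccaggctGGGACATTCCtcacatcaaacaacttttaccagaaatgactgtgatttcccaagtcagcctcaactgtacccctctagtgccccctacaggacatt
C/EBP near Dusp1, chr17:26512658-26512778: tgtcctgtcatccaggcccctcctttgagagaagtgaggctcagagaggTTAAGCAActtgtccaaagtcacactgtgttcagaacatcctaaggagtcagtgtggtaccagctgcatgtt
ISRE-like near Il1a, chr2:129315041-129315161: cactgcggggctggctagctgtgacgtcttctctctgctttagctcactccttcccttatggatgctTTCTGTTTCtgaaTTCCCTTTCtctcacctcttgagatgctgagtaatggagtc

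The gained sites were mostly small and weak peaks. The signal of a peak is an area of its −log10 p curve, and the score is 1000 times the signal per bp, limited to 1000. Scores were low beside the −log10 p of the gained peaks, which was 2.23 or more. The area thus appears to count only the part of the curve above the calling limit. Their median width was 208 bp (59 to 5398), their median signal 80.5 and their median score 403, beside 302 bp, 232 and 771 over all PL peaks. Of the 5048, 342 were at the score limit (6.77%, beside 39.1% of all PL peaks), and 66 (1.31%) were in the top 25% of the list by signal. Their median place in the PL list by signal was percentile 27.6, and that of their LL counterparts percentile 29.3. The percentile was higher in LL for 2469 sites and higher in PL for 2579. These values come from the lists that chose the sites and are a description. The rule had close cases on each side. A total of 41 sites overlapped an LL peak by under 20 bp and had a median signal of 35.9, while 31 peaks open in PL and LL were kept out by an overlap under 20 bp with PP or LP and had a median signal of 40.3. For 1514 sites (30%) a PP or LP peak lay within 500 bp, and the median gap was 1637 bp.

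A few gained sites were among the strongest peaks of the list. The strongest overlapped the last exon of Bach1, a repressor of haem and oxidative stress genes, at chr16:87733236-87738633, 34291 bp from its start, with a width of 5398 bp and a signal of 4954 in PL and 2570 in LL. The next lay 1776 bp from Ccl12, an attractant of monocytes, at chr11:82103621-82107001, with signals of 4158 and 3240. The third overlapped an exon of Egr1, an immediate early transcription factor, with signals of 3693 and 6710. The other 5 of the strongest 8 were nearest to Map3k8, a kinase of the LPS response (2439 in PL and 1209 in LL), 2010310C07Rik (2302 and 1092), Fth1, the heavy chain of the iron store ferritin (1813 and 88.5), Bach1 again (1706 and 1812) and Zfand5 (1610 and 789). All 8 were also open in WT-LPS and none in WT-PBS, while 6 were open in KO-LPS, the exceptions being those at Egr1 and Zfand5.

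Most gained sites were open again in WT-LPS and few in WT-PBS, while KO-LPS and KO-PBS lay between. The WT-LPS list held 2993 of them (59.3%, Wilson 95% interval 57.9 to 60.6) and the WT-PBS list 132 (2.61%, 2.21 to 3.09). All intervals of shares here cover counting error only, since the sites of 1 pooled library are not replicates. The KO-LPS list held 2556 (50.6%, 49.3 to 52.0) and the KO-PBS list 1294 (25.6%, 24.4 to 26.9). Every list held a larger share of all PL peaks, 77.8% in WT-LPS, 41.4% in WT-PBS, 68.5% in KO-LPS and 61.8% in KO-PBS. Site by site, 2880 gained sites were open in WT-LPS and not in WT-PBS and 19 the reverse. For the mutant, 1504 were open in KO-LPS and not in KO-PBS and 242 the reverse. Among PBS-treated mice, 1230 were open in KO-PBS and not in WT-PBS and 68 the reverse. Both LPS lists held 1878 sites (37.2%), WT-LPS without KO-LPS 1115, KO-LPS without WT-LPS 678, and neither 1377 (27.3%).

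**Figure D1:**
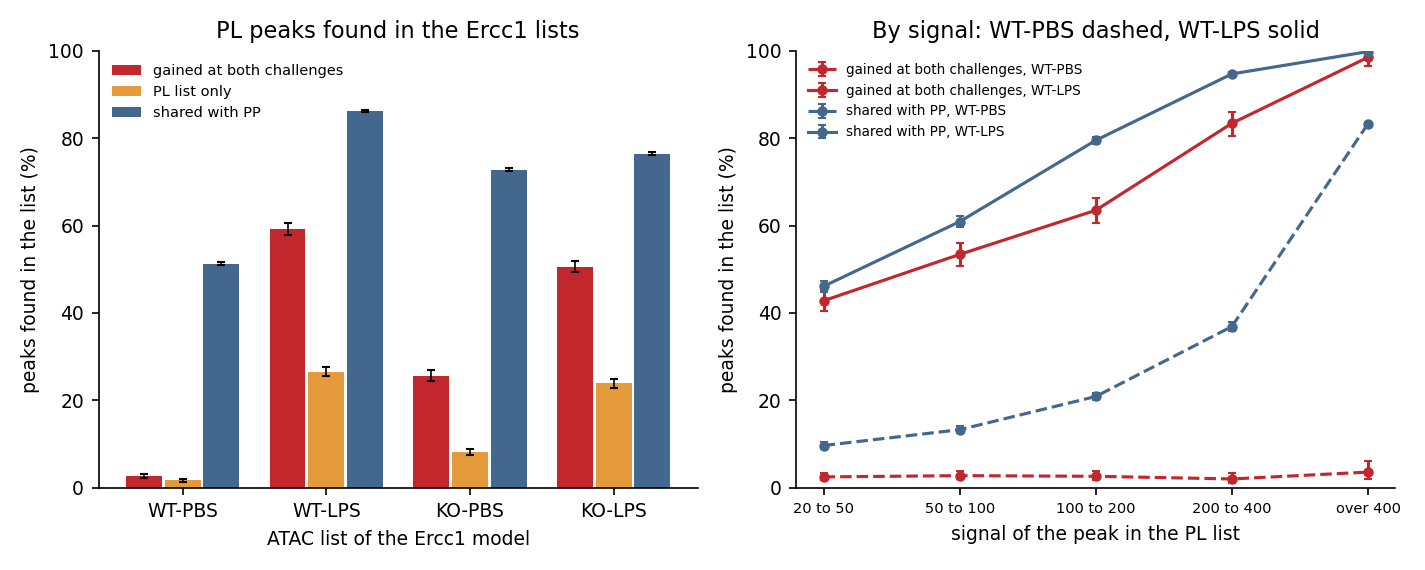
Left, the share (%) of PL peaks of 3 classes (gained at both challenges, in the PL list only, shared with PP) that overlapped a peak of each of the 4 Ercc1-model lists, with Wilson 95% intervals; right, the shares found in WT-PBS (dashed) and WT-LPS (solid) by PL signal. Gained sites stood at 2.61% in WT-PBS and 59.3% in WT-LPS, whereas peaks shared with PP stood at 51.3% and 86.2%.

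PL peaks outside the other 3 lists (PL only, 6275 peaks) and PL peaks shared with PP (55832) give the scale. WT-LPS held 26.5% of the PL-only peaks, 32.7 percentage points fewer than of the gained sites (Newcombe 95% interval 31.0 to 34.5), and KO-LPS 23.9% (26.8 points fewer, 25 to 28.5). WT-PBS held 1.71% of PL-only and 51.3% of shared peaks, and KO-PBS held 8.16% and 72.8%. Signal moved with these shares. Of the 1599 gained sites with a signal of 20 to 50, 42.8% were in WT-LPS and 2.50% in WT-PBS, and of the 333 above 400, 98.5% and 3.6%. Shared peaks above 400 were in WT-LPS for 99.8% and in WT-PBS for 83.3%. That class has no upper limit, and shared peaks reached higher signals in it (highest 22175 against 4954). In the bounded class of 200 to 400, WT-PBS held 2.03% of gained sites and 36.9% of shared peaks, and WT-LPS 83.4% and 94.7%. List length also moved with the shares, from 36412 peaks in WT-PBS to 65323 in WT-LPS. When every Ercc1 list was limited to its 36412 strongest peaks, the shares of gained sites were 2.61% in WT-PBS, 12.5% in KO-PBS, 24.4% in WT-LPS and 27.1% in KO-LPS. LPS stayed above PBS in both genotypes, while the order of WT-LPS and KO-LPS turned.

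H3K27ac was already present at many gained sites without LPS, and was found at more of them after it. Of the 5048 sites, 40.5% overlapped an H3K27ac peak in PP (39.1 to 41.9), 44.8% in LP (43.5 to 46.2), 48.0% in PL (46.6 to 49.4) and 51.2% in LL (49.8 to 52.6). Between PP and PL, 579 sites (11.5%) took up the mark and 200 (3.96%) gave it up. The same pairing of peaks shared with PP gave 1743 (3.12%) and 3033 (5.43%), the opposite balance. PL-only peaks leaned the same way as gained sites, with 426 (6.79%) and 281 (4.48%). Between LP and LL, 522 gained sites took up the mark and 199 gave it up. Of PL-only peaks these were 370 and 336, and of shared peaks 1584 and 2711. All 4 groups had the mark at 1726 sites (34.2%), none had it at 2077 (41.1%), and 242 (4.79%) had it in PL and LL alone. The site with AP-1 near Dusp2 printed above was one of these, whereas the sites near Fosl2 and Il1a carried the mark in all 4 groups. All printed sites had the mark in PL by choice. Among the 333 sites with a signal above 400, 36.0% had H3K27ac in PP, 42.6% in LP, 62.5% in PL and 64.3% in LL. Shared peaks above 400, which reached higher signals, had it for 90.6%, 92.2%, 90.9% and 92.3%. At 200 to 400 the shares were 37.5%, 42.8%, 53.8% and 56.3% of gained sites and 60.7%, 63.7%, 57.1% and 61.1% of shared peaks. Between both PBS-ended groups, 384 sites had the mark in LP and not in PP and 165 the reverse, but the shared peaks moved alike (2474 and 1044) and the LP list was the longest, with 34641 peaks.

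**Figure D2:**
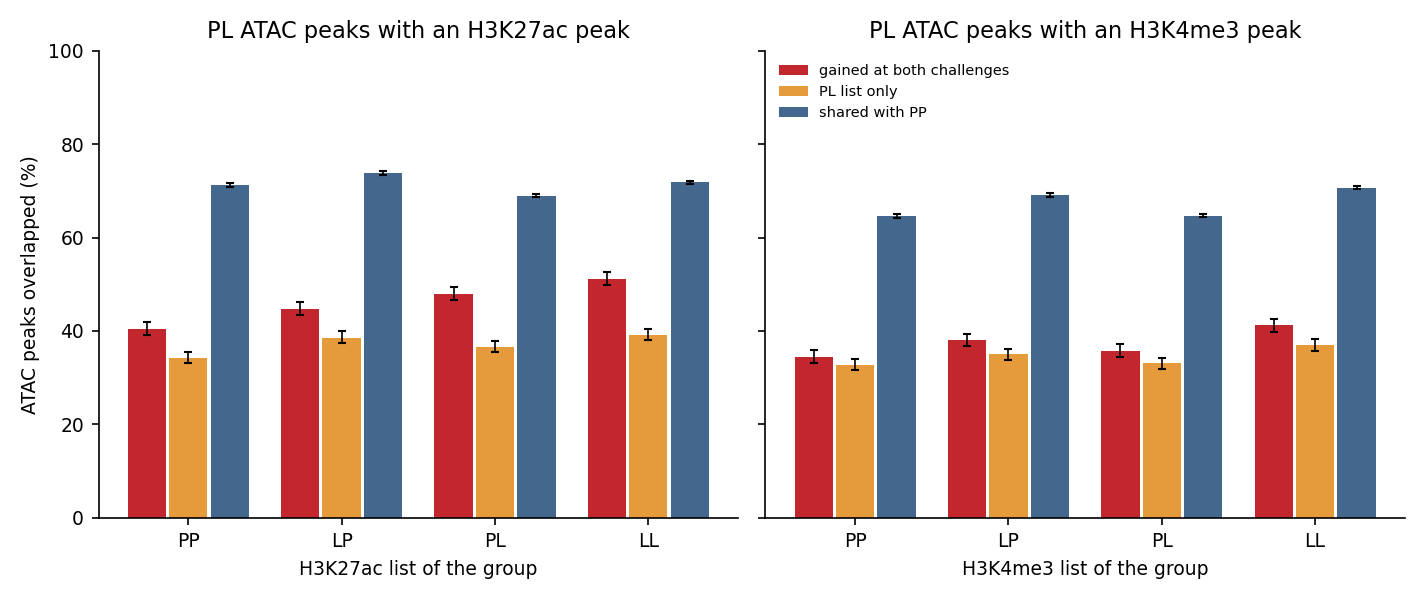
Share (%) of PL peaks that overlapped an H3K27ac peak (left) or an H3K4me3 peak (right) of PP, LP, PL and LL, for gained sites, PL-only peaks and peaks shared with PP, with Wilson 95% intervals. H3K27ac at gained sites went from 40.5% in PP to 51.2% in LL, and at shared peaks from 71.3% to 71.8%.

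H3K4me3, the mark of gene starts, differed less. It covered 34.5% of gained sites in PP, 38.0% in LP, 35.8% in PL and 41.2% in LL, beside 64.6%, 69.1%, 64.7% and 70.6% of shared peaks. The LL list was also the longest for this mark, with 38992 peaks. The enhancer mark H3K4me1, measured in PBS-treated mice of the Ercc1 model, covered 3987 gained sites (79.0%) in both lists and 4406 (87.3%) in at least 1. Of these, 1618 (32.1% of all gained sites) had H3K4me1 in both lists and H3K27ac in neither PP nor LP. That combination was not counted for other peaks. H3K4me1 alone did not set gained sites apart from peaks at large. The sources disagree on the genotype of both H3K4me1 lists, so their labels may be swapped. In the lists labelled WT-PBS and KO-PBS, H3K4me1 covered 82.3% and 83.9% of gained sites, less than of all PL peaks. The differences were −3.70 and −6.10 percentage points from shared peaks, and 7.77 and 6.64 from PL-only peaks. The repressive mark H3K27me3 covered 24.6% and 22.4% in the WT-PBS and KO-PBS lists, beside 21.2% and 19.5% of all PL peaks. Fewer gained sites lay within 1000 bp of a gene start than peaks at large, 778 (15.4%) against 24.8% of all PL peaks. In introns lay 50.0% against 42.0%. PL-only peaks were placed much alike, with 17.0% within 1000 bp of a start and 49.5% in introns. The marks were less frequent away from peaks of the PBS-ended groups. Among sites with no PP or LP peak within 500 bp, H3K27ac covered 27% in PP, 31.7% in LP, 35.5% in PL and 38.8% in LL, the same order as over all sites.

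Gained sites were spread over all chromosomes except Y (0 of 32 peaks there), from 3.50% of the PL peaks of X to 10.3% of those of chromosome 19, but some stood in dense groups. Joining sites less than 12.5 kb apart gave 3809 groups, of which 3138 were single sites and 51 held 5 or more, 477 sites in all. The densest lay at chr7:90139576-90208958 within Picalm, an adaptor of clathrin-mediated uptake, where 54 of 77 PL peaks were gained sites. Of these 54, 51 were open in WT-LPS, 14 in KO-LPS and 0 in either PBS list. At chr5:97006333-97095651, over parts of Paqr3, a Golgi regulator of MAP kinase signalling, and the kinase gene Bmp2k, 41 of 78 PL peaks were gained (30 in WT-LPS, 7 in KO-LPS). At chr16:92599876-92690175, nearest to Runx1, a transcription factor of blood cells, and the non-coding antisense gene Gm26626, 35 of 70 were gained (30 and 17). Bach1 had 23 of 29 at chr16:87707305-87738901 (17 and 11), with H3K27ac at 7 of the 23 in PP, 6 in LP, 8 in PL and 12 in LL. The next groups were 19 of 37 peaks at Ptpn1, a tyrosine phosphatase of cytokine receptors, and 16 of 19 at Il4ra, the interleukin-4 receptor chain. Sites within such a group share a neighbourhood and are not independent of each other.

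To set the gained sites beside transcripts, each was given to the nearest start of a coding or long non-coding gene within 100 kb. This placed 4898 sites at 3273 genes, of which 2487 were coding, 2439 had 1 site and 84 had 5 or more. The median distance of the placed sites was 8665 bp. RNA was not used to choose the sites. Calls come from the quasi-likelihood test of edgeR with 3 mice in each group, and needed both a log2 fold change beyond ±1 and a Benjamini-Hochberg value below 0.01, and levels are given in CPM, counts scaled by TMM to a common library total. Sums over marker genes are in CPM of the plain library total. Library totals were 4529972 to 15307360 counts in the recurrent model and 18243712 to 34659134 in the Ercc1 model. All 8 microglia markers had counts in every library, with a summed level of 38162 to 41928 CPM in PP, 39047 to 43107 in LP, 20877 to 26048 in PL and 29999 to 32904 in LL. The summed level of 8 neutrophil markers was 0.878 CPM in PL replicate 1, reached 289 CPM in the other PL mice and was at most 54.4 elsewhere in that model, and 0 of these 8 genes was nearest to a gained site. Summed monocyte markers (5 genes) moved with LPS and genotype, with 22.3 to 30.6 CPM in PP and 56.6 to 90.9 in PL, 24.4 to 30 in LP and 43.4 to 50.5 in LL, 13.8 to 29.3 in the WT groups, 41.4 to 90.2 in KO-PBS and 88.2 to 105 in KO-LPS. The 5 markers of border-associated macrophages summed to 7.09 to 12.6 CPM in WT-PBS, 14.9 to 19.9 in WT-LPS, 16.3 to 28.9 in KO-PBS and 40.4 to 50.3 in KO-LPS, and the neutrophil markers to 26.5 in 1 KO-LPS mouse and under 1 in the other Ercc1 mice. Their part in the RNA differences was not tested. With PL replicate 1, which had 0.878 CPM of neutrophil and 56.6 CPM of monocyte markers, as the only PL library, the counts given next for PL versus PP became 504 higher and 157 lower. In the Ercc1 model, the third WT-PBS mouse stood apart from the other WT-PBS mice, with 31297 CPM of microglia markers against 54188 and 55961, and the WT counts, shares and differences below are given also without it. In such bulk samples, fewer cells of a type and less RNA per cell cannot be told apart.

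Genes nearest to gained sites were called higher after LPS more often than genes at large. Of 2169 tested, 478 were higher in PL than in PP (22.0%, 20.3 to 23.8; 9.64% of all genes tested) and 159 lower (7.33%; 9.09% of all genes). In LL versus LP, which shares no mouse with the first comparison, 320 were higher (14.8%; 4.98% of all genes) and 48 lower (2.21%; 3.03% of all genes). The median log2 fold change was 0.17 in PL versus PP (−0.04 over all genes tested) and 0.10 in LL versus LP (−0.06). Both comparisons called 307 of these genes higher (14.2%; 4.68% of all genes) and 42 lower (1.94%; 2.68% of all genes), and none in opposite directions. The other genes called higher in PL versus PP were not called in LL versus LP, which alone called 13 higher and 6 lower, and 117 were lower in PL versus PP alone. Most neighbouring genes, 1513, were called in neither. In LP versus PP no neighbouring gene was called higher (0% of all genes) or lower (0%) by edgeR, 136 had an unadjusted p under 0.05 (6.27%; 5.08% of all genes), and limma with sva called 1.

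The Ercc1 model gave the same direction in other mice. In WT-LPS versus WT-PBS, 254 of 2260 neighbouring genes were higher (11.2%; 4.02% of all genes) and 24 lower (1.06%; 1.46% of all genes). Without the third WT-PBS mouse these were 312 (13.5%; 4.77% of all genes) and 33 (1.43%; 1.73% of all genes), and without the first WT-LPS mouse the lower count was 15. In KO-LPS versus KO-PBS, 397 were higher (17.6%; 6.51% of all genes) and 138 lower (6.11%; 7.35% of all genes). The share was not particular to sites gained at both challenges. Of genes nearest to PL-only peaks, 18.8% were higher in PL versus PP, 11.9% in LL versus LP, 2.95% in PL versus LL, 10.1% in WT-LPS versus WT-PBS (11.8% without the third WT-PBS mouse) and 14.4% in KO-LPS versus KO-PBS. Of those nearest to peaks shared with PP the shares were 9.64%, 5.53%, 1.44%, 4.49% (5.6% without that mouse) and 7.17%. A gene can be in more than 1 of these groups.

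PL and LL, which shared the LPS injection 3 h before, differed at some neighbouring genes. In a comparison that uses the same PL and LL mice as above, 73 were higher in PL (3.37%; 1.22% of all genes) and 1 lower (0.186% of all genes). The largest differences were at Gpr132, a receptor of lysophospholipids (log2 fold change 4.53), Cxcl10, an attractant of T cells (4.5), Art3 (3.96), Mcemp1 (3.71) and Cd40, a costimulatory receptor (3.41). Gadd45b, a stress gene with 6 gained sites, had 3.21. The gene lower in PL was Rtn4rl1, a receptor of axon inhibitors, with 1 site 74801 bp away (−1.06, SE 0.20, adjusted p = 0.0056), and the count of lower genes was 0 without LL replicate 1, LL replicate 2, PL replicate 1 or PL replicate 2 and 5 without PL replicate 3. These genes were chosen after their values were seen.

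The share of genes called rose with the number of gained sites. In PL versus PP, 15.9% of genes with 1 site were higher, 30.3% with 2, 42.8% with 3 or 4 and 59.7% of the 77 with 5 or more. Genes with more gained sites also had more peaks of any kind. Among genes with at least 10 PL peaks, 7.99% of the 463 without a gained site, 18.1% of the 415 with 1 or 2 and 48.0% of the 200 with 3 or more were higher. For LL versus LP these shares were 4.32%, 11.6% and 39.0%, for WT-LPS versus WT-PBS 2.82%, 8.81% and 29.8% (5.52%, 12.5% and 33.3% without the third WT-PBS mouse), and for KO-LPS versus KO-PBS 6.72%, 14.5% and 43.9%.

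**Figure D3:**
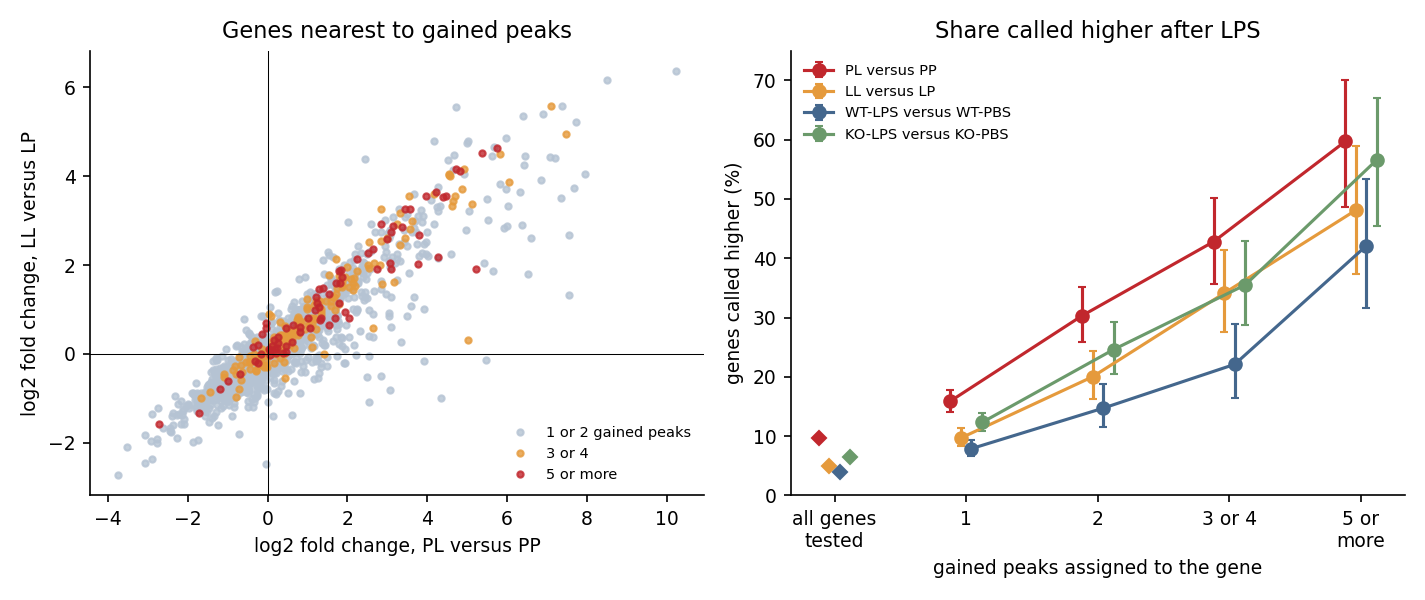
Left, log2 fold change of each gene nearest to a gained site in LL versus LP against PL versus PP, coloured by its number of gained sites; right, the share (%) of tested genes called higher by number of sites, with Wilson 95% intervals and diamonds for all genes tested. In PL versus PP the share went from 15.9% with 1 site to 59.7% with 5 or more, beside 9.64% of all genes.

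The genes with the most gained sites were among those that rose. Picalm, with 47, had 774, 778 and 816 CPM in the PP mice and 3207, 2486 and 2609 in PL, and 852, 790 and 826 in LP and 2534, 2317 and 2575 in LL. All LPS mice were above all PBS mice, and the log2 fold changes were 1.81 (SE 0.11, adjusted p = 1.3e-08) in PL versus PP and 1.59 (SE 0.11, adjusted p = 1.0e-07) in LL versus LP. Bach1, with 23, had 202, 200 and 188 CPM in PP, 2053, 1385 and 1606 in PL, 202, 199 and 187 in LP and 1354, 1191 and 1407 in LL. Its log2 fold changes were 3.09 (SE 0.14, adjusted p = 9.5e-10) and 2.75 (SE 0.14, adjusted p = 6.0e-09), and in the Ercc1 model 2.49 in WT (2.48 without the third WT-PBS mouse) and 3.27 in KO. Paqr3 (23 sites) and Bmp2k (18) rose less, by 1.29 and 1.40 in PL versus PP and by 1.47 and 1.49 in LL versus LP. Both non-coding genes of this group, Gm26626 (27 sites) and Gm44876 (13), had 2.85 and 3.56 in PL versus PP. Their sites stood in the same groups as those of Runx1 and Il4ra, and the strand setting of the counting was not given in the sources used here. Sites did not always go with a call. E230029C05Rik (13 sites) had −0.04 (adjusted p = 0.86) in PL versus PP and 0.70 (adjusted p = 0.013) in LL versus LP. Fam49b, a regulator of actin through Rac (12 sites), had 0.61 (adjusted p = 9.2e-04) and 0.27 (adjusted p = 0.12). Neither gene was called in these comparisons, Fam49b in PL versus PP only for its fold change.

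**Figure D4:**
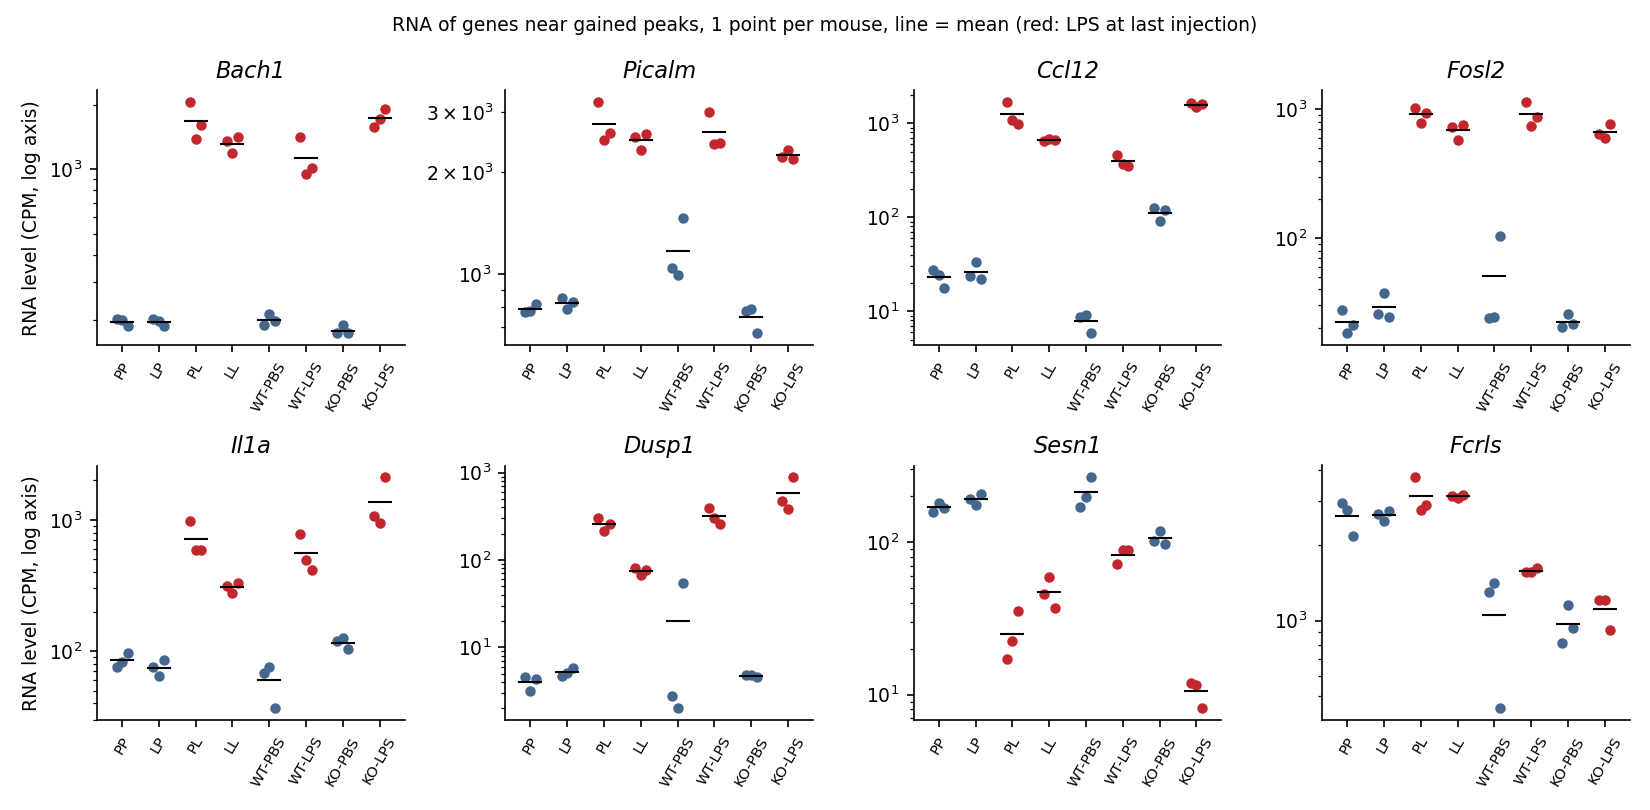
Level (CPM, log axis) of Bach1, Picalm, Ccl12, Fosl2, Il1a, Dusp1, Sesn1 and Fcrls in each mouse (points) of the 8 groups, 3 mice per group. Bach1 lay between 187 and 202 CPM in all PP and LP mice and between 1191 and 2053 in all PL and LL mice. For Fcrls, PP and PL mice overlapped, while all LL mice were above all LP mice.

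The lists of genes described next overlap, a gene counting in each list that holds it, and their counts stand beside the shares called higher of all genes tested, 9.64% in PL versus PP and 4.98% in LL versus LP, and of all neighbouring genes, 22.0% and 14.8%. They are descriptions. Immediate early genes, the first made after a stimulus and mostly transcription factors, were the list with the most gained sites, 34 at 14 of 26 genes. Of the 13 tested, 11 were called higher in PL versus PP and 11 in LL versus LP. Fosl2 (7 sites) had 27.7, 18.2 and 21 CPM in PP and 1020, 784 and 942 in PL, and 25.7, 37.7 and 24.4 in LP and 732, 581 and 762 in LL. Its log2 fold changes were 5.37 (SE 0.22, adjusted p = 4.5e-10) and 4.53 (SE 0.21, adjusted p = 3.3e-09). Batf, another AP-1 subunit (4 sites), rose by 3.56 and 2.82. Egr1 (4 sites) had 23.3, 11.3 and 21.7 CPM in PP, 493, 308 and 805 in PL, 7.06, 12.3 and 38.0 in LP and a mean of 234 (SD 35.7, n = 3) in LL. In the Ercc1 model it had 9.62, 6.45 and 36.4 in WT-PBS, 2688, 2665 and 2633 in WT-LPS, 36.5, 64.2 and 50.6 in KO-PBS and 330, 279 and 182 in KO-LPS. The strongest Egr1 site was open in WT-LPS and not in KO-LPS, where the transcript was lower in every mouse. Egr3, with 4 sites, had −1.44 (adjusted p = 0.057) in PL versus PP, and Klf6 had 0.47 and was not called.

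The list of MAP kinase phosphatases and mRNA decay genes had 8 sites at 5 of 14 genes. All 5 were phosphatases, which switch off the kinases that act on AP-1, and all 5 were called higher in both comparisons. Dusp1 (3 sites) had 4.62, 3.14 and 4.38 CPM in PP, 301, 213 and 260 in PL, 4.65, 5.14 and 5.80 in LP and 81.5, 68.0 and 77.2 in LL. Its log2 fold changes were 6.05 (SE 0.18, adjusted p = 1.1e-10) and 3.87 (SE 0.17, adjusted p = 2.8e-09), and every PL mouse was above every LL mouse (1.77, adjusted p = 3.7e-06). Dusp2, whose AP-1 sequence is printed above, had 0.577, 1.47 and 0.762 CPM in PP, 72.6, 64.7 and 57.3 in PL, 1.28, 1.19 and 1.80 in LP and 12.2, 7.77 and 8.58 in LL. It was thus higher in PL than in LL as well (2.75, SE 0.19, adjusted p = 2.4e-06). Dusp16 (2 sites) rose by 2.13 and 1.87.

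NF-kB subunits and inhibitors had 13 sites at 6 of 15 genes, with 6 called higher in PL versus PP and 3 in LL versus LP. The inhibitors Nfkbia (3 sites) and Nfkbiz (4 sites) rose in both, by 3.44 and 2.60 and by 2.81 and 2.01. Bcl3 (1 site), a nuclear partner of NF-kB, rose by 5.96 and 4.87. Nfkb1, the p50 subunit (3 sites), had 262, 240 and 237 CPM in PP, 581, 502 and 522 in PL, 258, 238 and 248 in LP and 287, 262 and 283 in LL. It rose in PL versus PP (1.12, SE 0.09, adjusted p = 3.2e-07) and had 0.16 (adjusted p = 0.22) in LL versus LP. The inhibitor Tnfaip3 (1 site) had 2.53 and −0.05. Each of the 6 genes had a site open in PL and LL by the rule, whether or not its transcript was called in LL.

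Cytokines had 11 sites at 6 of 15 genes, all called higher in both comparisons, and chemokines 10 sites at 6 of 16, with 5 and 4 of the 5 tested called. Il1a (5 sites) had 75.9, 82.2 and 97.5 CPM in PP, 973, 587 and 585 in PL, 75.4, 64.6 and 84.8 in LP and 315, 276 and 328 in LL. The changes were 3.07 (SE 0.20, adjusted p = 2.2e-08) and 2.04 (SE 0.19, adjusted p = 2.2e-06), with PL above LL (1.22, adjusted p = 0.0011). Il1b, which encodes interleukin-1 beta, had 2 sites, 1 of them over its start. It rose by 7.20 and 4.41, and Tnfsf9, a costimulatory ligand, by 3.93 and 2.48. Ccl12 (5 sites) had 27.2, 24.2 and 17.5 CPM in PP, 1682, 1088 and 994 in PL, 23.9, 33.1 and 22.0 in LP and 647, 681 and 672 in LL. Its changes were 5.75 (SE 0.24, adjusted p = 5.7e-10) and 4.63 (SE 0.23, adjusted p = 6.0e-09). In the Ercc1 model it had 8.77, 9.13 and 5.84 CPM in WT-PBS and 126, 91.1 and 120 in KO-PBS, with 2 of its 5 sites open in KO-PBS and 0 in WT-PBS, and 457, 371 and 350 in WT-LPS and 1642, 1486 and 1609 in KO-LPS. Ccl22 (1 site over its start) had 3.50 in PL versus PP and 0.85 (adjusted p = 0.39) in LL versus LP.

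STAT3 and SOCS genes, which relay and then curb cytokine signals, had 18 sites at 10 of 15 genes, with 8 called higher in PL versus PP, 7 higher in LL versus LP and 1 lower (Il10ra, the interleukin-10 receptor chain, −1.08). Socs3 (2 sites) had 39.7, 31.4 and 41.5 CPM in PP, 3421, 2828 and 3229 in PL and 2363, 1947 and 1955 in LL. Il4ra (4 sites) rose by 3.32 and 3.17, Gadd45g, a stress gene (3 sites), by 3.53 and 3.55, and Stat3 (2 sites) by 3.06 and 2.67, with PL against LL differences of 0.08 to 0.31 that were not called. C/EBP and acute-phase genes had 8 sites at 4 of 16. All 3 tested were called in both comparisons, among them Slc39a14 (4 sites) at 3.23 and 2.93. Slc39a14 went from 36.4, 39.2 and 43.2 CPM in WT-PBS to 140 to 223 CPM in WT-LPS, and from 44.0, 45 and 47.7 in KO-PBS to 589, 645 and 846 in KO-LPS.

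Glucocorticoid-induced genes, which answer to the stress hormone corticosterone, had 19 sites at 10 of 20 genes. They were called higher for 9 in PL versus PP and 9 in LL versus LP, while Sgk1, a kinase, was lower in LL versus LP (−1.20). Zbtb16, a transcription factor with 3 sites, had 0.231, 0.256 and 0 CPM in PP, 13.1, 24.0 and 54.5 in PL, 0.321, 1.82 and 0.200 in LP and 61.4, 40.3 and 60.5 in LL. Ddit4, an inhibitor of mTOR (3 sites), rose by 2.83 and 3.26, Map3k6 (1 site) by 5.03 and 4.79, and Klf4, of the immediate early list, by 5.00 and 4.75. In WT-LPS versus WT-PBS 1 of the 10 was called with all mice and 9 without the third WT-PBS mouse. Zbtb16 was 0.458, 0.352 and 110 CPM in WT-PBS, the last value being the mouse that stood apart. Without it the log2 fold change went from 0.72 to 7.21 for Zbtb16, from −1.46 to 2.32 for Ddit4, from 1.21 to 6.30 for Map3k6 and from 2.44 to 5.91 for Klf4.

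Interferon-stimulated genes, the antiviral programme, had 8 sites at 8 of 28 genes, with 6 called higher in PL versus PP and 3 in LL versus LP. The guanylate-binding protein genes Gbp5 and Gbp2 had 4.02 and 3.04 in PL versus PP and 2.21 and 0.93 in LL versus LP, the last not called. Parp14 had 1.65 and 0.30 (adjusted p = 0.15). Enzymes of prostaglandin and nitric oxide synthesis had 10 sites at 5 of 11 genes, and of the 4 tested 3 were higher in PL versus PP and 1 in LL versus LP. Ass1 (4 sites) had 0, 0.128 and 0.191 CPM in PP, 3.88, 5.66 and 1.72 in PL and 0.487, 0.587 and 0.903 in LL, with 5.24, 9.23 and 9.94 in KO-PBS and 25.2, 20.6 and 29.3 in KO-LPS. Hdc, which makes histamine (1 site), was called in PL versus PP from 0, 0.0641 and 0.191 CPM in PP, a level of few counts, and Ptgs1, a cyclooxygenase (3 sites), −0.44 and −0.05, not called.

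Some gained sites lay beside genes that fell or were not called. Homeostatic microglia genes had 22 sites at 8 of 21, with 0 called higher. Mef2c, a transcription factor (2 sites), fell by 1.30 in PL versus PP, and Gpr34, a receptor of lysophosphatidylserine (1 site), fell by 2.10 in PL versus PP and by 1.47 in LL versus LP. Fcrls, a microglial Fc receptor-like gene with 11 sites, had 2940, 2759 and 2177 CPM in PP, 3749, 2761 and 2910 in PL, 2672, 2490 and 2755 in LP and 3139, 3093 and 3188 in LL (0.26, adjusted p = 0.12 and 0.25, adjusted p = 0.17). Smad3, a factor downstream of TGF-beta (3 sites), was not called. Sesn1, a stress regulator of mTOR with 1 site, had 158, 180 and 168 CPM in PP, 17.0, 22.4 and 35.4 in PL, a mean of 191 (SD 14.8, n = 3) in LP and 45.8, 59 and 37.0 in LL (−2.78, SE 0.22, adjusted p = 1.7e-07 and −2.0, SE 0.21, adjusted p = 6.4e-06). Cbx8, a Polycomb subunit, S1pr1, a sphingosine receptor, Plekhg5, St8sia4, a sialyltransferase, and the non-coding Gm10384, each with 1 site, also fell in both comparisons, with log2 fold changes of −3.51 to −2.26 and −2.45 to −1.82. Of the monocyte list 2 of 5 genes had a site. Plac8 had 2.16 (adjusted p = 0.0011) and Ccr2, the receptor that draws monocytes, 0.82, with site signals of 87.8 and 24.6. Of border-associated macrophage genes, 0 of 5 had a site.

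Several genes with 1 to 4 sites, the nearest within 4355 bp of the start, had among the largest rises. Trem1, an amplifier of inflammatory signals, had a site of signal 574 over its start. It had 0, 0 and 0.191 CPM in PP, 77.5, 57.9 and 40.8 in PL, 0.160, 0.752 and 0 in LP and 46.6, 30.5 and 42.5 in LL (adjusted p = 7.6e-09 and 1.1e-07). Cd300lf, an inhibitory receptor of myeloid cells, rose by 7.37 and 5.57, Spp1, which encodes osteopontin, by 6.46 and 4.45, Sema6b by 5.67 and 4.65, Hcar2, a receptor of hydroxybutyrate, by 5.61 and 4.46, and Igfbp6, a binder of insulin-like growth factors, by 4.73 and 5.56. The non-coding genes Gm45774 and Gm16175 rose by 7.07 and 5.82 in PL versus PP and by 4.44 and 4.49 in LL versus LP.

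The sequence of gained sites was searched within 100 bp of the summit on both strands. AP-1 (TGANTCA) was found at 860 sites (17.0%), beside 9.25% of all PL peaks, and exceeded the 7.99% of shared peaks by 9.05 percentage points (8.01 to 10.1) and the 14.2% of PL-only peaks by 2.82 (1.48 to 4.18). C/EBP (TTGCNNAA) was found at 646 (12.8%; 9.79% of all PL peaks), 3.17 points above shared (2.24 to 4.15) and 4.03 above PL-only peaks (2.88 to 5.20). STAT (TTCCNGGAA) was at 2.04% and the glucocorticoid response element at 0.594% (30 sites), beside 0.974% and 0.268% of all PL peaks. NF-kB was at 160 sites (3.17%), near the 3.16% of all PL peaks and below the 5.08% of PL-only peaks (difference −1.91 points, −2.64 to −1.18). PU.1 (GAGGAAGT) was less frequent at gained sites, 6.32% against 8.80% of all PL peaks, as were CTCF (2.56% against 4.51%) and EGR (GCGNGGGCG, 1.49% against 2.3%). Over 1000 bp from a start EGR was not less frequent, with 0.609% of gained sites and 0.483% of all PL peaks. ISRE-like GAAANNGAA was at 7.92% (8.46% of all PL peaks). CRE (TGACGTNA) was at 1.56%, RUNX (TGTGGTTT) at 2.22% and MEF2 at 2.06%, beside 1.62%, 2.24% and 1.88% of all PL peaks and 1.73%, 2.28% and 1.86% of shared peaks. CRE exceeded the 0.956% of PL-only peaks by 0.609 points (0.198 to 1.05). Over 1000 bp from a start CRE was at 1.62% of gained sites, beside 1.02% of all PL peaks and 0.961% of shared peaks there. A match is a description of the letters, not a bound site. At least 1 of AP-1, C/EBP and NF-kB stood at 1509 sites (29.9%; 20.7% of all PL peaks) and 3539 sites had none of these. GC content moved with the classes, with a median of 49.3% at gained sites and 51.2% at shared peaks. Within GC classes, AP-1 was at 13.7% and 9.39% of gained and shared peaks under 40% GC, 20.2% and 9.82% at 45 to 50% and 11.8% and 4.78% at 55% and over. Within 50 bp of the summit the shares were lower, but AP-1 still stood at 10.3% of gained sites and 4.33% of shared peaks, and C/EBP at 6.04% and 4.36%.

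**Figure D5:**
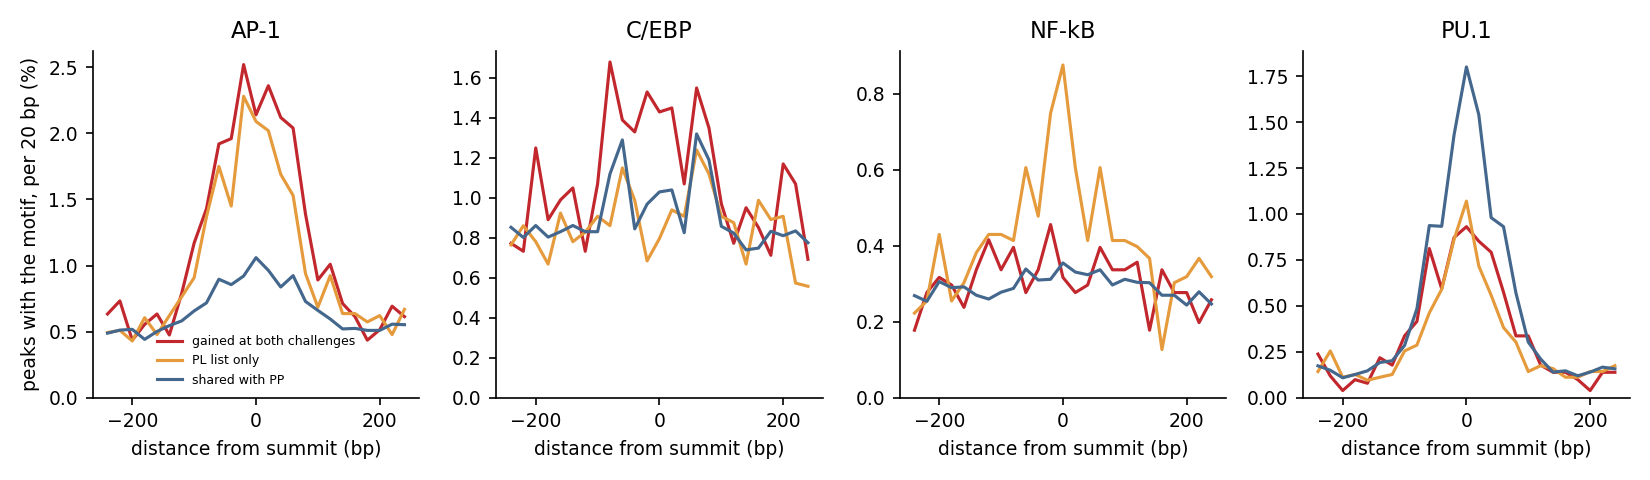
Share (%) of peaks with a match of AP-1, C/EBP, NF-kB or PU.1 in each 20 bp step of distance from the summit, for gained sites, PL-only peaks and peaks shared with PP. Within 100 bp of the summit AP-1 was at 17.0% of gained sites and 7.99% of shared peaks.

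The motifs went with where else a site was open. Gained sites with AP-1 were in the KO-LPS list for 69.2%, those without for 46.8% (difference 22.4 points, 18.9 to 25.7), and in KO-PBS for 34.1% and 23.9%. In WT-LPS the shares were 61.9% and 58.8% (3.10, −0.513 to 6.62). Sites with C/EBP gave 64.4% and 48.6% in KO-LPS and 56.2% and 59.7% in WT-LPS. Sites with NF-kB were more often open in both, 76.9% and 49.8% in KO-LPS and 73.1% and 58.8% in WT-LPS, and 58.8% and 47.6% had H3K27ac in PL. That mark was less frequent with AP-1 than without, 44.2% and 48.8% (difference −4.60 points, −8.21 to −0.932). The same held for C/EBP (42.9% and 48.8%) and PU.1 (40.8% and 48.5%). For STAT, ISRE-like, the glucocorticoid response element and CRE the interval included no difference. Of the 101 tested genes nearest to a gained site with NF-kB, 43 were higher in PL versus PP (42.6%), beside 21% of the other neighbouring genes (difference 21.5 points, 12.2 to 31.4). With AP-1 the shares were 24.2% and 21.4% (2.84, −1.23 to 7.19), and with PU.1 32.5% and 20.9% (11.6, 5.28 to 18.5). Genes with more sites have more chances to hold any motif, and this was not tested apart.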

How the data were processed

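Per the labels and the methods of the study, ATAC reads were aligned with Bowtie2 2.3.5.1, duplicates, blacklisted and poorly placed reads were removed, and the authors called peaks with Genrich 0.5. The deposited ATAC lists give a score, a signal (an area of the −log10 p curve, apparently above the calling limit) and the −log10 p of each peak. Of the deposited lists of marks, which the authors called with SPAN against input and which give a score, −log10 p and −log10 q, coordinates were used. The deposited RNA tables hold expected counts that the authors made with STAR 2.7.3a on GRCm38 and featureCounts 2.0.0.

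Peaks were overlapped with bedtools 2.31.1. Expected counts were rounded, filtered with filterByExpr, scaled by TMM and fitted with edgeR 4.0.16 (R 4.3.3) over all 12 libraries of each model, with Benjamini-Hochberg adjustment over the 16096 and 17460 genes tested. Intervals are Wilson's for a share and Newcombe's for a difference of shares, at 95%. Motif strings were searched in the GRCm38 genome of RefSeq, and scripts were tested on simulated data.

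The members, the 14 gene lists and the tests were chosen with earlier results of these data known. Named by rule were up to 15 higher and 6 lower genes called in PL versus PP and LL versus LP with libraries that do not overlap and a mean level of 5 CPM or more, the 8 genes with most sites, up to 3 genes per list, the 8 strongest sites and the printed sequences. Other list members were chosen after their values were seen. Alternatives were DESeq2 1.42.0, limma 3.58.1 with and without sva 3.50.0, other filters, the compared groups alone, a replicate block, each library left out, other overlaps, distances and windows, and equal list lengths.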

Additional observations from a re-analysis of the deposited data

Results flagged for a closer look

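Of 58 named genes nearest to gained sites, 8 had an adjusted p under 0.01 (0.627% of all genes tested) for a difference between the first and the second LPS response, by an interaction test in edgeR over all genes, and 11 had one under 0.05 (1.8% of all genes). Among all 2169 neighbouring genes tested, 39 (1.80%) passed the first limit and 103 (4.75%) the second. The difference (PL versus PP minus LL versus LP, log2) was 2.01 for Spp1 (adjusted p = 0.0056), 2.18 for Dusp1 (adjusted p = 6.3e-04), 3.08 for Dusp2 (adjusted p = 0.0025) and 0.96 for Nfkb1 (adjusted p = 0.0017). It was 2.79 for Il1b (adjusted p = 0.0078), 1.35 for Parp14 (adjusted p = 0.0045), 2.11 for Gbp2 (adjusted p = 0.0081) and 1.81 for Gbp5 (adjusted p = 6.3e-04). The named genes were chosen with their values known. With PL replicate 1 as the only PL library the 8 differences stayed between 1.05 and 3.37 with an adjusted p under 0.05, and without LP replicate 2 Spp1 (1.62) and Il1b (2.57) no longer passed it.

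In the Ercc1 model, 5 of 55 named genes had an adjusted p under 0.01 (0.796% of all genes tested) for a difference between the LPS responses of the genotypes, and 13 had one under 0.05 (4.63% of all genes). Among all 2260 neighbouring genes tested, 30 (1.33%) passed the first limit and 168 (7.43%) the second. The KO response minus the WT response was −1.82 for Ccl12 (adjusted p = 0.0039), −3.10 for Spp1 (adjusted p = 0.0080), −1.97 for Sesn1 (adjusted p = 0.0034), −4.85 for Egr1 (adjusted p = 0.0049) and 1.82 for Slc39a14 (adjusted p = 0.0040). Without the third WT-PBS mouse these were −1.59, −3.18, −2.13, −5.93 and 1.8, all with an adjusted p under 0.05. KO-PBS was above WT-PBS for Ccl12 and for Spp1, which had a mean of 157 CPM (SD 68.8, n = 3) and 3.16 CPM (SD 0.565, n = 3).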

How the results depend on the processing

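Of 204 counts of neighbouring genes 189 stayed within 1.5 times, and of 3264 values of named genes 3170 stayed on their side of an adjusted p of 0.05, where values that did not pass could change sign, 40 newly passed it, 52 lost it and 2 reversed. Of 99 shares of sites 48 stayed within their interval. With an overlap of at least 50%, H3K27ac covered 37.1% of gained sites in PP, 42.3% in LP, 44.2% in PL and 47.5% in LL, H3K4me3 32.7%, 35.3%, 33.8% and 39.0%, and WT-LPS held 57.6%. With no PP or LP peak within 500 bp these shares were 27%, 31.7%, 35.5% and 38.8% for H3K27ac and 24.2%, 26.3%, 25% and 30.1% for H3K4me3, while WT-PBS held 2.07%, KO-PBS 27.2% and KO-LPS 55.7%, and promoters 10.3%. Over 1000 bp from a start they were 36.7%, 41.3%, 44.3% and 48.0% for H3K27ac and 26.6%, 30.4%, 27.9% and 33.9% for H3K4me3. AP-1 was there at 18.5% and EGR at 0.609%, beside 10.8% and 0.483% of all PL peaks over 1000 bp from a start. Equal numbers of peaks of a mark gave 39.6% for H3K4me3 in LL, equal numbers in PP, LP, PL and LL gave 29.4% in KO-PBS, 64.5% in WT-LPS and 56.7% in KO-LPS, and equal Ercc1 lists gave 12.5%, 24.4% and 27.1%. Promoters within 2000 bp held 23.8%. Within 50 bp of the summit AP-1 was at 10.3%, C/EBP at 6.04%, PU.1 at 3.84%, ISRE-like at 2.95%, CTCF at 1.82%, NF-kB at 1.56%, RUNX at 1.15%, STAT at 0.812%, EGR at 0.812%, CRE at 0.753%, MEF2 at 0.594% and the glucocorticoid response element at 0.376%, as fewer bases were searched.

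Neighbouring genes called lower in PL than in LL numbered 3 with DESeq2, 3 with the compared groups alone, 9 with limma and sva, 0 with limma without sva, 4 with no filter on low counts, 0 with starts within 20 kb, 0 to 5 with each library left out, and 3 with PL replicate 1 as the only PL library, an alternative chosen after seeing the data whose lone sample is assumed to vary like the other groups. Limma with sva called 1 gene higher in LP versus PP. With each library left out, PL versus PP called 460 to 491 genes higher, LL versus LP 296 to 325 higher and 37 to 60 lower, PL versus LL 50 to 84 higher, WT-LPS versus WT-PBS 186 to 312 higher and 15 to 33 lower, and KO-LPS versus KO-PBS 322 to 364 and 109 to 134. Ddit4 in WT-LPS versus WT-PBS turned to 2.32 without the third WT-PBS mouse (range −2.07 to 2.32 with each library left out) to 2.04 with limma without sva and to 1.38, not called, with limma with sva, for which the cause was not tested. The replicate numbers of the recurrent model did not pair the mice, since correlations of same-numbered deviations ran from −0.377 to 0.463. With a replicate block, PL versus PP called 476 higher and 158 lower, LL versus LP 315 and 46, PL versus LL 74 and 0, and LP versus PP 0 and 0.

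Each peak list rests on 1 pooled library, most gained sites were weak, and a site missing from a list is 1 that the peak caller did not call there. Sequencing depth of the ATAC and ChIP libraries is unknown. The strain and the age differ between both models. The nearest start need not be the gene a site acts on.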
